A study of Mus musculus with 15 samples.

Results

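Tcf7, Lef1, Bach2, Foxo1, Foxp1, Id3, Satb1, Ets1, Bcl11b and Myb encode transcription regulators that are known from naive and stem-like memory T cells. These 10 genes were taken by symbol from the 17493 genes of the count tables. All 10 passed the filter on low counts, which left 10831 genes to test. RNA was measured in bulk from CD8+ T cells of female OT-I mice, strain C57BL/6-Tg(TcraTcrb)1100Mjb/Crl, whose transgenic receptor recognises an ovalbumin peptide on MHC class I. Spleen and lymph nodes were the source in all groups, and every group holds the same single receptor specificity. One group was unstimulated, at 0 h. No group was cultured for 8 h or 22 h without a stimulus. In comparisons with unstimulated cells, stimulation and time in culture therefore cannot be told apart. A pair of groups was cultured with 5 ng/ml immunofilaments (IF), which are synthetic filaments labelled as carrying peptide-MHC (SIIT) and interleukin-2, for 8 h or for 22 h. Another pair was cultured for 8 h or 22 h with peptide-pulsed dendritic cells (DC) derived with Flt3 ligand, at 20000 per well. The peptide was SIITFEKL. Stimulated wells held 50000 T cells. Whether the wells with dendritic cells also received interleukin-2 was not given in the sources used here, so filament, interleukin-2 and dendritic cell cannot be told apart in a comparison of IF with DC. Viable CD8+ CD103- cells were sorted before RNA was extracted. Each group has 3 libraries, whose titles number them Don1, Don2 and Don3 in every group, called replicates 1, 2 and 3 here. The number may stand for a donor animal, but the labels do not spell this out, and they do not say if a number is the same animal in every group. The p-values measure the spread between these libraries. A fit with the number as a block is given beside each result whose call it changed.

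A naive CD8+ T cell is kept quiescent, long-lived and recirculating by a network of transcription factors. TCF1 (encoded by Tcf7), LEF1, FOXO1, BACH2 and ID3 support the survival and self-renewal of naive, memory and stem-like cells, while ETS1, SATB1 and BCL11B maintain T cell identity and chromatin organisation. Strong or prolonged antigen signalling with cytokine is known to reduce several of them as cells become effectors, and c-Myb is known from stem-like CD8+ T cells and from dividing progenitors.

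Total counts ran from 2892874 to 19806730 per library, with 11427 to 13591 genes detected. The summed level of 8 CD8+ T cell genes was 10635 to 11528 CPM (counts per 1000000 of the library total, scaled by TMM, the trimmed mean of M values) in unstimulated cells and 4820 to 7471 CPM over the stimulated groups. The 18 dendritic cell genes summed to 732 to 1604 CPM in unstimulated cells, 404 to 555 CPM after IF for 8 h and 461 to 737 CPM after IF for 22 h. After DC they summed to 1134 to 1349 CPM at 8 h and 705 to 996 CPM at 22 h. One of the 18, Irf8, is also known from activated T cells. It was 29.8 to 37.2 CPM in unstimulated cells and 74.9 to 174 CPM at IF 8 h, and in replicate 2 of the DC groups it was 262 CPM at 8 h and 519 CPM at 22 h, against 27.3 to 74.4 CPM in the other DC libraries. The 17 other genes summed to 477 CPM in DC 22 h replicate 2, the lowest of its group, and to 673 and 677 CPM in replicates 1 and 3. Zbtb46, a defining gene of conventional dendritic cells, was at 0 in the unstimulated and IF 8 h libraries and reached at most 2.28 CPM at DC 8 h. Fscn1, an actin-bundling gene of mature dendritic cells, spanned 126 to 168 CPM at DC 8 h and 72.9 to 94.8 CPM at DC 22 h. It spanned 5.83 to 43.8 CPM at IF 22 h and was at most 6.75 CPM elsewhere. Other genes of the list went the other way. H2-Ab1 spanned 137 to 391 CPM in unstimulated cells and 86.4 to 117 CPM at DC 8 h. Cst3 spanned 174 to 291 CPM and 112 to 169 CPM in these groups. H2-Aa, H2-Eb1 and Cd74 overlapped between them. B cell, CD4+ T cell, monocyte, and neutrophil or erythroid lists, of which 7 of 12, 4 of 4, 4 of 6 and 3 of 6 genes are in the tables, each summed to at most 46.0 CPM in any library. Cd4 was at 0 in the unstimulated, IF 8 h and both DC groups. The NK cell list summed to 140 to 420 CPM, and it includes Eomes, which CD8+ T cells also express. The part of these markers in the results below was not tested. In bulk samples, fewer cells of a type and less RNA per cell cannot be told apart. Replicates 2 and 3 of IF 22 h stood apart from the rest. Mitochondrial ribosomal RNA took 0.179% and 0.146% of their counts, against 1.82% to 4.49% in the 13 other libraries, so the members' changes at IF 22 h are given with and without them. Without them that group keeps 1 library, which is assumed to vary like the other groups. By counts over all genes it was replicate 1 of IF 22 h that stood apart within its group, with a chi-square per degree of freedom of 53.3 against replicate 2 and 96.4 against replicate 3, while replicates 2 and 3 gave 13.7. Values without it are given where a call changed. Replicate 2 of the DC groups also stood apart. At 22 h its counts differed from those of replicates 1 and 3 with a value of 51.7 and 98.1 on that measure, against 22.8 between those 2, and at 8 h with 35.1 and 39.0, against 17.6.

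The promoters of Myb, Bach2 and Foxo1 are shown because Myb differed between the stimuli at both times and Bach2 and Foxo1 differed from unstimulated cells in all 4 stimulated groups. Each is the 250 bases before the RefSeq start (GRCm38.p6), written 5′ to 3′ on the gene's strand. Capitals mark matches to any of 7 motifs, searched on both strands: AP-1 (TGANTCA), TCF/LEF (CTTTGAT), FOXO (GTAAACA), ETS (CCGGAA), STAT (TTCNNNGAA), the GC box (GGGCGG) and MYB (TAACNG).
Myb, chr10:21160985-21161234, minus strand: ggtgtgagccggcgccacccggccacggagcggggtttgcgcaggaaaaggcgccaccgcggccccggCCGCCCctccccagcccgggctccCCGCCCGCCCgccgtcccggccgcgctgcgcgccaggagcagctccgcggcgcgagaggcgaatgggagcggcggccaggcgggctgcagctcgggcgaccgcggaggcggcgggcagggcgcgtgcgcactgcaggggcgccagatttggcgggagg
Bach2, chr4:32417185-32417434, plus strand: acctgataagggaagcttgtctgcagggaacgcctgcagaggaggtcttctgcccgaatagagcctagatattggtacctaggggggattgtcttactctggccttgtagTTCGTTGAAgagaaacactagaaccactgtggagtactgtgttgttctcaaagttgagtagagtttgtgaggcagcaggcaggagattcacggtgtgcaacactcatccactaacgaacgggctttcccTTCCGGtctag
Foxo1, chr3:52268087-52268336, plus strand: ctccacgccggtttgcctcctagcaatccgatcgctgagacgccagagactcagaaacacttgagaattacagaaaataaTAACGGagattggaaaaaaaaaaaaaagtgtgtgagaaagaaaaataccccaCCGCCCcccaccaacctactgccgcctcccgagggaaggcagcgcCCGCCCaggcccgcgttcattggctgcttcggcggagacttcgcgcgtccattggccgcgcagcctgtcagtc

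These windows differ most in base composition. The Myb window has 81.2% G and C and 40 CpG dinucleotides, against a median of 52.4% and 6 CpG over all 32851 windows of this length. Its capitals are 3 GC boxes on the opposite strand, of which a pair overlaps. A GC box occurs in 32.7% of all windows. The Bach2 window has 50.4% G and C and 7 CpG. It holds 1 STAT match, found in 7.02% of all windows, and 1 ETS match, found in 12%. It lies inside the GENCODE gene body of Bach2, downstream of that annotation's first start. The Foxo1 window has 56% G and C, 20 CpG, 2 GC boxes and 1 MYB match. A MYB match is found in 19.8% of all windows. None of the 3 windows holds the AP-1, TCF/LEF or FOXO letters, which occur in 6.75%, 3.21% and 3.17% of all windows. These matches describe letters only. The assay counts the 3′ ends of transcripts and does not measure which promoter was used or what was bound there.

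The members did not move as a block. A test for any difference among the 5 groups (edgeR quasi-likelihood F test, Benjamini-Hochberg adjustment over all genes tested, threshold 0.05) called 6 of the 10, against 11.8% of all genes tested. The 6 were Bach2, Foxo1, Satb1, Ets1, Bcl11b and Myb. Bach2, Foxo1 and Myb passed in each of 15 fits that left out 1 library, Satb1 in 13, Bcl11b in 6 and Ets1 in 2. Id3 had an adjusted p of 0.0515, Foxp1 0.211, Tcf7 0.345 and Lef1 0.853 in the same edgeR test. With the replicate number as a block 5 members passed, and 1171 of the 10831 genes in place of 1283. Ets1 (adjusted p = 0.0681) and Bcl11b (0.0527) then missed the threshold and Id3 (0.0349) passed it. With library size alone as the scaling Ets1 (0.161) and Bcl11b (0.077) also missed it and Id3 (0.0333) passed. With no filter on low counts 8 members passed, and 2416 genes in place of 1283. Ets1 (0.0661) then missed the threshold and Tcf7 (0.0398), Foxp1 (0.00771) and Id3 (0.00495) passed. With a mean of at least 10 CPM Ets1 (0.0517) missed it and Id3 (0.0486) passed, and Id3 passed in DESeq2 (0.00747). Leaving out IF 22 h replicates 2 and 3 together left 3 members past the threshold, Bach2, Foxo1 and Myb, and 797 genes. Leaving out IF 22 h replicate 1 gave 8 members, with Tcf7 (0.0386) and Foxp1 (0.00119) added, and 1697 genes.

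Against unstimulated cells, 3 of 10 members passed the threshold at IF 8 h, beside 7.76% of all genes tested. Of them, 2 were higher (3.04% of all genes) and 1 lower (4.72%). At DC 8 h the count was again 3, beside 6.82% of all genes, with 2 higher (2.75%) and 1 lower (4.07%). IF 22 h gave 5, beside 6.08%, with 2 higher (2.63%) and 3 lower (3.44%). DC 22 h gave 3, beside 7.76%, with 1 higher (3.41%) and 2 lower (4.35%). At an unadjusted p under 0.05 there were 4 members beside 2484 of the 10831 genes at IF 8 h, 5 beside 2261 at DC 8 h, 8 beside 2225 at IF 22 h and 4 beside 2405 at DC 22 h. These 4 comparisons share the same 3 unstimulated libraries. With IF the median log2 fold change of the 10 members was -0.03 at 8 h and -0.46 at 22 h, where the medians over all genes were 0.02 and 0.01. With DC it was -0.15 and -0.25, where all genes had 0.04 and 0.04. The CPM ranges of 8 members did not overlap with the unstimulated ones at IF 8 h, as for 30.6% of all genes. That held for 7 members at DC 8 h (28.2% of all genes), 7 at IF 22 h (30.4%) and 3 at DC 22 h (27.1%).

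The scaling of the libraries bears on these directions. With total counts alone in place of TMM, the median change of all genes against unstimulated cells, on the log2 scale, moved to 0.26 and 0.22 with IF at 8 h and 22 h, and to 0.30 and 0.37 with DC. The share of higher genes among those called went from 39.2% to 76.3% after 8 h of IF and from 43.3% to 74.1% after 22 h of IF. With DC it went from 40.3% to 79.6% at 8 h and from 43.9% to 85.4% at 22 h. For IF against DC at 22 h it went from 50.6% to 32.8%. Under that scaling 2 members passed at IF 8 h, where the count of all genes rose from 840 to 1113, and 4 at IF 22 h, where it rose from 658 to 838. With DC 4 members passed at 8 h, where all genes rose from 739 to 1079, and 2 at 22 h, where they rose from 840 to 1586. The fall of Foxo1 kept its direction in all 4 groups but not its call at IF 8 h (adjusted p = 0.0503) or DC 22 h (0.0599). The falls of Satb1 and Bcl11b at IF 22 h and of Ets1 at DC 22 h, and the Id3 difference at 22 h, kept their directions with adjusted p of 0.147, 0.0572, 0.165 and 0.0726. At DC 22 h the Ets1 change went from -0.65 to -0.32 and the Foxo1 change from -0.87 to -0.54. No call for Bach2 or Myb was lost to the scaling.

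**Figure D1:**
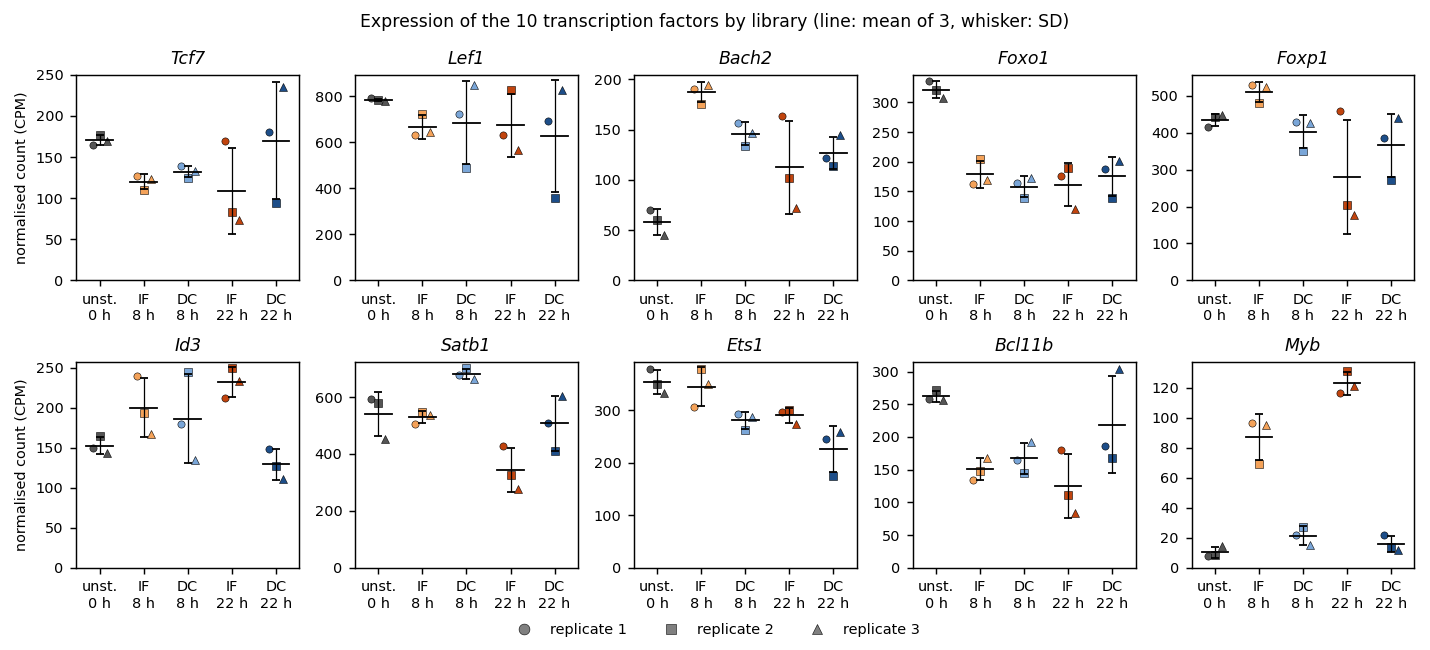
Normalised read counts (CPM, linear axis from 0) of the 10 genes, 1 panel a gene, in the 3 libraries of each of the 5 groups. Points are libraries, the horizontal line is the mean and the whisker is 1 SD. Myb stands between 69.3 and 131 CPM in the 6 IF libraries and at or below 27.4 CPM in the 9 others.

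Tcf7 encodes TCF1, an HMG-box factor that is a defining regulator of stem-like CD8+ T cells (11:52252371-52283014, minus strand, mm10; GENCODE vM21, whose coordinates are used for all genes here). Its levels were 165, 177 and 169 CPM in unstimulated cells, 127, 110 and 123 CPM at IF 8 h and 139, 125 and 133 CPM at DC 8 h. All 6 libraries of the 8 h groups were below all 3 unstimulated ones. The log2 fold change was -0.50 ± 0.30 (SE) with IF (edgeR adjusted p = 0.336) and -0.36 ± 0.30 with DC (0.53), so neither passed. At 22 h the libraries spread widely. Tcf7 stood at 169, 83.7 and 73.3 CPM at IF 22 h and at 180, 93.8 and 235 CPM at DC 22 h, and both groups overlapped with the unstimulated one. The changes were -0.65 ± 0.30 (edgeR adjusted p = 0.224) and -0.01 ± 0.30 (0.996). Without IF 22 h replicate 1, whose Tcf7 is at the unstimulated level, the change at IF 22 h was -1.12 with an adjusted p of 0.0163, and the count of all genes past the threshold there rose from 658 to 947. Without replicates 2 and 3 the Tcf7 change was -0.01 (adjusted p = 1), and 99 genes passed.

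Lef1 encodes LEF1, the closest relative of TCF1 in T cells (3:131110471-131224356, plus strand; it shares exonic bases with the antisense gene Gm43352, and whether counting used strand was not given in the sources used here). It was the steadiest of the 10 in unstimulated cells, at 790, 782 and 779 CPM. IF gave 631, 724 and 644 CPM at 8 h and 631, 828 and 565 CPM at 22 h. With DC it was 721, 489 and 847 CPM at 8 h and 693, 356 and 828 CPM at 22 h. All IF 8 h libraries were below the unstimulated ones, and the 3 other stimulated groups overlapped with them. The log2 fold changes against unstimulated cells lay between -0.33 and -0.19, none past the threshold (lowest edgeR adjusted p = 0.472). The 95% interval at IF 22 h ran from -0.75 to 0.31. The Lef1 change there was -0.31 (adjusted p = 0.834) without IF 22 h replicates 2 and 3. In both DC groups replicate 2 held the lowest Lef1 value.

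Bach2 encodes a BTB-bZIP repressor that restrains effector genes at AP-1 sites (4:32238804-32586108, plus strand, sharing exonic bases with antisense Bach2os). It was above the unstimulated level in all 12 stimulated libraries. It measured 70.0, 60.2 and 44.7 CPM in unstimulated cells, 191, 176 and 195 CPM at IF 8 h and 157, 134 and 146 CPM at DC 8 h. At 22 h it was 163, 102 and 72.3 CPM with IF and 122, 113 and 144 CPM with DC. Only IF 22 h replicate 3 came close to the highest unstimulated library. Bach2 rose by 1.68 ± 0.25 on the log2 scale at IF 8 h (3.20-fold, edgeR adjusted p = 0.000482) and by 1.32 ± 0.24 at DC 8 h (2.49-fold, 0.00315). It rose by 1.11 ± 0.24 at DC 22 h (2.17-fold, edgeR adjusted p = 0.0089) and by 0.94 ± 0.24 at IF 22 h (1.92-fold, 0.0282). Both calls at 8 h were kept in each of 6 fits that left out 1 library. At IF 22 h the call was lost in 4 of 6, without unstimulated replicate 2 or 3 or IF 22 h replicate 1 or 2, with adjusted p up to 0.127. Without IF 22 h replicate 1 the Bach2 change there was 0.58, and without replicates 2 and 3 it was 1.48 (adjusted p = 0.00729). At DC 22 h the call was lost only without unstimulated replicate 3 (adjusted p = 0.0501). Levels of Bach2 at IF 8 h did not overlap with those at DC 8 h, yet the difference of 0.36 ± 0.24 did not pass (edgeR adjusted p = 0.781).

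Foxo1 encodes the forkhead factor that drives homing and survival genes of naive T cells and is held in the cytoplasm when AKT is active (3:52268336-52353221, plus strand, sharing exonic bases with antisense Gm20402). Every stimulated library was below every unstimulated one. Unstimulated cells held 336, 321 and 308 CPM. The 8 h values were 163, 204 and 169 CPM with IF and 163, 139 and 172 CPM with DC. At 22 h they were 175, 189 and 120 CPM with IF and 188, 138 and 201 CPM with DC. Across the 4 stimulated groups the mean level stayed between 158 and 178 CPM, and their ranges overlapped. Foxo1 fell by 0.85 ± 0.19 on the log2 scale at IF 8 h (1.80-fold lower, edgeR adjusted p = 0.0117) and by 1.02 ± 0.19 at DC 8 h (2.03-fold lower, 0.00326). At 22 h it fell by 1.00 ± 0.19 with IF (2.00-fold lower, edgeR adjusted p = 0.00434) and by 0.87 ± 0.19 with DC (1.83-fold lower, 0.00877). All calls but that at IF 8 h were kept in each of 6 fits that left out 1 library. The call at IF 8 h was lost without IF 8 h replicate 1 (adjusted p = 0.0546) or replicate 3 (0.054), and with IF 22 h replicates 2 and 3 both left out the change of -0.88 at IF 22 h had an adjusted p of 0.148. The log2 difference of Foxo1 between IF and DC was 0.17 ± 0.19 at 8 h (95% interval -0.22 to 0.57) and -0.12 ± 0.19 at 22 h (-0.52 to 0.27).

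Foxp1 encodes a forkhead repressor that maintains naive T cell quiescence (6:98925338-99522721, minus strand, sharing exonic bases with Gm20696 and the miRNA gene Gm49348 on the same strand). Its values were 416, 442 and 447 CPM in unstimulated cells, 529, 480 and 522 CPM at IF 8 h and 429, 351 and 426 CPM at DC 8 h. The IF 8 h libraries were the highest of any group. At IF 22 h replicate 1 held 458 CPM and replicates 2 and 3 held 204 and 178 CPM. DC 22 h gave 386, 272 and 440 CPM. No comparison passed for Foxp1 in the fit of all libraries with the filter on low counts. Its change at IF 22 h was -0.64 ± 0.27 (edgeR adjusted p = 0.191) with all libraries, -1.18 (0.000792) without IF 22 h replicate 1 and 0.08 (0.966) without replicates 2 and 3. The low libraries of this gene are the pair with little mitochondrial ribosomal RNA, whose part in the result was not tested.

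Id3 encodes a helix-loop-helix protein that has no DNA-binding region and blocks E proteins (4:136143497-136145755, plus strand, with no exonic overlap). It was 150, 164 and 144 CPM in unstimulated cells. With IF it was 240, 193 and 167 CPM at 8 h and 212, 249 and 233 CPM at 22 h. With DC it was 179, 245 and 134 CPM at 8 h and 149, 128 and 111 CPM at 22 h. At 22 h all 3 IF libraries were above both the DC and the unstimulated libraries. Id3 was higher with IF than with DC at 22 h by 0.84 ± 0.20 on the log2 scale (1.80-fold, edgeR adjusted p = 0.036, rank 209 by p-value of all genes). The same comparison at 8 h gave 0.10 ± 0.20 (0.973). Against unstimulated cells no Id3 change passed, with 0.60 ± 0.20 at IF 22 h (edgeR adjusted p = 0.0941; 0.0224 with library size alone, 0.0456 with no filter and 0.0154 with only the groups compared) and -0.24 ± 0.20 at DC 22 h (0.514). The IF-DC difference of Id3 at 22 h kept its direction but lost the call in 5 of 6 fits that left out 1 library, with differences between 0.75 and 0.96 and adjusted p up to 0.164. It was kept only without IF 22 h replicate 1 (adjusted p = 0.0195). The Id3 difference was 0.72 (adjusted p = 0.802) without IF 22 h replicates 2 and 3, and the change against unstimulated cells was then 0.48 (0.634).

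Satb1 encodes a chromatin organiser of T cells (17:51736187-51833290, minus strand, sharing exonic bases with Gm36931 on the same and Gm6934 on the opposite strand). Unstimulated libraries held 593, 578 and 453 CPM. At 8 h Satb1 was 505, 546 and 537 CPM with IF and 677, 702 and 665 CPM with DC, so DC 8 h stood above all 3 unstimulated and all 3 IF 8 h libraries. At 22 h it was 427, 326 and 277 CPM with IF and 508, 409 and 605 CPM with DC. The level at IF 22 h was below every unstimulated and every IF 8 h library. Satb1 fell by 0.66 ± 0.18 on the log2 scale at IF 22 h (1.58-fold lower, edgeR adjusted p = 0.0353). The value at DC 8 h, 0.33 ± 0.18, did not pass (0.298). The call at IF 22 h was lost in 4 of 6 fits that left out 1 library, without unstimulated replicate 1 or 2 or IF 22 h replicate 2 or 3 (adjusted p up to 0.183). With IF 22 h replicates 2 and 3 both left out, the Satb1 value was -0.34 (0.679).

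Ets1 encodes a founding ETS factor that supports T cell survival (9:32636221-32757820, plus strand, with no exonic overlap). Its values were 379, 350 and 333 CPM in unstimulated cells, 307, 380 and 350 CPM at IF 8 h and 297, 301 and 275 CPM at IF 22 h. With DC they were 293, 262 and 288 CPM at 8 h and 245, 175 and 258.5 CPM at 22 h. Both DC groups and IF 22 h lay below the unstimulated range, and IF 8 h overlapped with it. Ets1 fell by 0.65 ± 0.16 on the log2 scale at DC 22 h (1.56-fold lower, edgeR adjusted p = 0.0175). The changes at DC 8 h, -0.33 ± 0.16 (0.233), and at IF 22 h, -0.28 ± 0.16 (0.326), did not pass, and IF 8 h gave -0.04 ± 0.16 (0.925). The Ets1 change at IF 22 h was -0.25 (0.792) without replicates 2 and 3. The call at DC 22 h was lost without unstimulated replicate 1 or 2 or DC 22 h replicate 2, the lowest library (adjusted p = 0.0754, 0.0561 and 0.0701). At both times all IF libraries were above all DC libraries for Ets1, by 0.30 ± 0.16 at 8 h (edgeR adjusted p = 0.667) and 0.36 ± 0.16 at 22 h (0.268).

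Bcl11b encodes a zinc-finger factor required for T cell commitment and identity (12:107910403-108003602, minus strand, with no exonic overlap). It was 258, 272 and 257 CPM in unstimulated cells, 135, 149 and 168 CPM at IF 8 h and 165, 145 and 192 CPM at DC 8 h. None of the 8 h libraries reached the unstimulated range. At 22 h Bcl11b was 180, 111 and 83.6 CPM with IF and 186, 168 and 304 CPM with DC, where replicate 3 was above every unstimulated library. Bcl11b fell by 1.07 ± 0.25 on the log2 scale at IF 22 h (2.10-fold lower, edgeR adjusted p = 0.0194). At 8 h the changes were -0.80 ± 0.25 with IF (edgeR adjusted p = 0.0655) and -0.65 ± 0.25 with DC (0.144), and at DC 22 h the change was -0.26 ± 0.25 (0.583). The IF 8 h change passed in DESeq2 (adjusted p = 0.0294). The IF 22 h call was lost in 5 of 6 fits that left out 1 library, all but the one without IF 22 h replicate 1 (adjusted p up to 0.106). With IF 22 h replicates 2 and 3 both left out the Bcl11b change there was -0.54 (0.577).

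**Figure D2:**
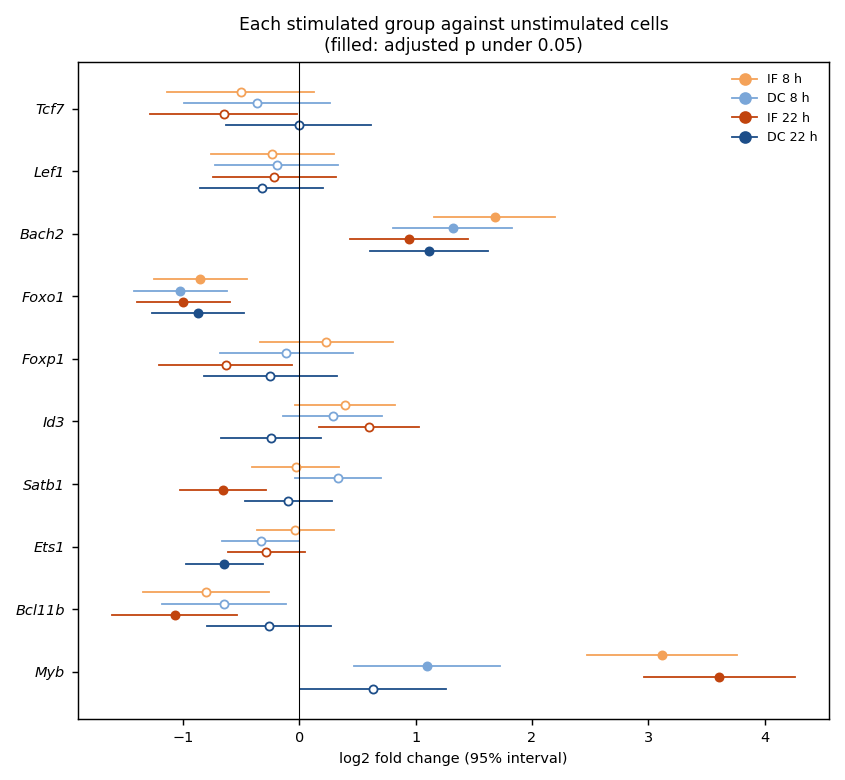
Log2 fold change of each of the 10 genes in each stimulated group against unstimulated cells, with 95% intervals from the edgeR fit. Filled points have an adjusted p below 0.05. Bach2 lies above 0 and Foxo1 below 0 in all 4 groups, and all 4 share the same 3 unstimulated libraries.

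Myb encodes c-Myb (10:21124935-21160984, minus strand, sharing exonic bases with antisense Gm26577), and its changes with IF were the largest of the 10. It was low in unstimulated cells, at 7.63, 8.31 and 14.7 CPM, which are 52, 46 and 63 counts. With IF it was 96.5, 69.3 and 95.4 CPM at 8 h and 116, 131 and 121 CPM at 22 h. With DC it was 21.9, 27.4 and 14.98 CPM at 8 h and 21.7, 13.5 and 11.6 CPM at 22 h. The 6 IF libraries lay far above the other 9, the DC 8 h libraries were just above the unstimulated range and the DC 22 h libraries overlapped with it. Myb rose by 3.12 ± 0.31 on the log2 scale at IF 8 h (8.67-fold, edgeR adjusted p = 9.48e-06) and by 3.61 ± 0.31 at IF 22 h (12.2-fold, 2.36e-06). At DC 8 h it rose by 1.09 ± 0.30 (2.14-fold, 0.0334; 0.0518 with the replicate block), and this call was lost in 4 of 6 fits that left out 1 library, without unstimulated replicate 1 or 2 or DC 8 h replicate 1 or 2 (adjusted p up to 0.143). The DC 22 h change was 0.63 ± 0.30 (edgeR adjusted p = 0.222). Both IF calls were kept in each of 6 such fits. The Myb change at IF 22 h was 3.53 (adjusted p = 0.00044) without replicates 2 and 3.

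Compared directly, IF and DC differed in 1 of 10 members at 8 h, beside 0.665% of all genes tested, and in 2 of 10 at 22 h, beside 2.43%. Those called were higher with IF. At an unadjusted p under 0.05 there were 1 member and 896 of the 10831 genes at 8 h, and 6 members and 1656 genes at 22 h. Of all genes, 0.231% were higher and 0.434% lower with IF at 8 h, and 1.23% higher and 1.20% lower at 22 h. Myb was higher with IF by 2.02 ± 0.28 on the log2 scale at 8 h (4.06-fold, edgeR adjusted p = 0.00144, rank 14 by p-value of all genes) and by 2.98 ± 0.29 at 22 h (7.88-fold, 3.88e-05, rank 4). Both Myb differences were past the threshold in each of 6 fits that left out 1 library, between 1.81 and 2.23 at 8 h and between 2.80 and 3.29 at 22 h. The second gene at 22 h was Id3, described above. Ranges did not overlap for 5 members at 8 h (13.5% of all genes) and for 3 at 22 h (19.9%). The median IF-DC difference of the members was 0.14 at 8 h and -0.15 at 22 h, against -0.01 and -0.02 over all genes. At 22 h the difference was -0.81 ± 0.25 for Bcl11b and -0.56 ± 0.18 for Satb1, each with an edgeR adjusted p of 0.113. DESeq2 called both as lower with IF (adjusted p = 0.0444 for Bcl11b and 0.044 for Satb1), and edgeR without a filter called Bcl11b (0.00507). Tcf7 gave -0.65 ± 0.30 (0.307). Without IF 22 h replicate 1, 6 members passed at 22 h, beside 759 of all genes in place of 263, and Tcf7 (adjusted p = 0.0174), Foxp1 (0.00494), Satb1 (0.0137) and Bcl11b (0.00552) were the added ones, all lower with IF. With replicates 2 and 3 left out in its place, Myb alone of the members passed, at 2.90 (adjusted p = 0.00589), beside 8 of all genes.

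**Figure D3:**
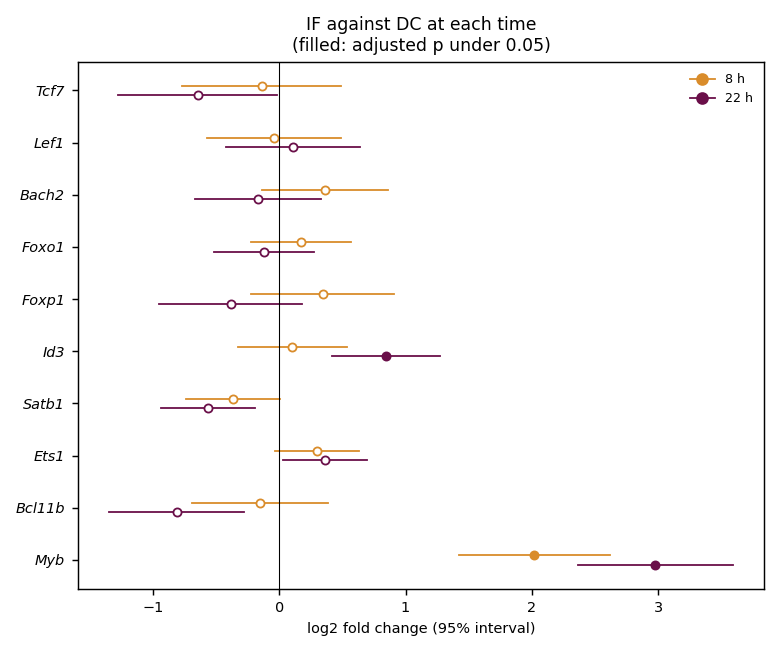
Log2 difference between immunofilament and dendritic cell groups for each of the 10 genes at 8 h and at 22 h, with 95% intervals from the edgeR fit. Filled points have an adjusted p below 0.05, and positive values are higher with IF. Myb is far from 0 at both times, and Id3 passes at 22 h. At 22 h the intervals of Bcl11b, Satb1 and Tcf7 lie below 0 and that of Ets1 above 0, without passing the threshold. All other intervals include 0.

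Between 8 h and 22 h no member passed the threshold with either stimulus. Of all genes, 1.12% passed with IF and 0.480% with DC. At an unadjusted p under 0.05 there were 3 members with IF, beside 1622 of the 10831 genes, and 2 with DC, beside 978. DESeq2 called 1 member and 366 genes with IF, and 0 members and 210 genes with DC. With IF the 3 were Bach2, -0.74 ± 0.24 (edgeR adjusted p = 0.16), Foxp1, -0.87 ± 0.27 (0.146), and Satb1, -0.62 ± 0.18 (0.108). With DC the pair was Id3, -0.53 ± 0.20 (0.38), and Satb1, -0.43 ± 0.18 (0.445). Without IF 22 h replicate 1, Bach2, Foxp1 and Satb1 passed with IF (edgeR adjusted p = 0.00555, 0.000315 and 0.0134), and the count of all genes rose from 121 to 541. Without replicates 2 and 3 of that group 0 members and 0 genes passed. Ranges at 22 h and 8 h did not overlap for 5 members with IF (21.5% of all genes) and for 2 with DC (13.9%).

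A test of the interaction asked if the size of the IF-DC difference depends on time. No member passed it in edgeR with the filter on low counts, nor did any of the genes tested (0%). DESeq2 called 0 members and 40 genes, and edgeR without the filter called 0 members and 155 genes. At an unadjusted p under 0.05 in the filtered edgeR fit there were 2 members and 858 genes. The 2 members were Myb, whose difference was larger at 22 h by 0.96 ± 0.39 (edgeR adjusted p = 0.553), and Id3, by 0.74 ± 0.29 (0.542). The presence of an Id3 call at 22 h and not at 8 h is thus not a shown difference between the times. Without IF 22 h replicate 1 Foxp1 passed the interaction (-1.28, adjusted p = 0.00861), as did 279 of all genes. Without replicates 2 and 3 of that group 0 members and 0 genes passed.

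Ordered by mean level, most neighbouring groups of the members had overlapping ranges. The share over all genes was not computed for neighbouring pairs, and overlapping ranges do not show equal levels. No neighbouring pair had separate ranges for Tcf7, Lef1, Id3 or Bcl11b, though groups further apart in the order could have them. For Myb the order was IF 22 h, IF 8 h, DC 8 h, DC 22 h and unstimulated, with separate ranges only for the first and the second neighbouring pair. For Bach2 the order was IF 8 h, DC 8 h, DC 22 h, IF 22 h and unstimulated, with IF 8 h and unstimulated cells separate from their neighbours. Within Tcf7 and within Foxp1, replicates varied more at 22 h than at 0 h or 8 h. The coefficient of variation of Tcf7 was 3.74% in unstimulated cells, 48.4% at IF 22 h and 42.0% at DC 22 h, and that of Foxp1 was 3.73%, 55.3% and 23.5%. DC 22 h replicate 2 was the lowest of its group for 8 of the 10 members, as for 42.1% of all genes. DC 22 h replicate 3 was the highest for 8 of 10, as for 35.7% of all genes. DC 8 h replicate 2 was the lowest of its group for 7 of 10, as for 40.1% of all genes. IF 22 h replicate 3 was the lowest for 8 of 10, as for 29.2% of all genes. Left out of the fit, DC 22 h replicate 2 took the count at DC 22 h from 3 members to 2, Bach2 (1.21, edgeR adjusted p = 0.0121) and Foxo1 (-0.71, 0.0403), and that of all genes from 840 to 540. The DC 22 h changes of Tcf7, Lef1 and Bcl11b were then 0.31, -0.02 and -0.08, none past the threshold. Between IF and DC at 22 h Satb1 then passed (-0.70, edgeR adjusted p = 0.0474), Id3 did not (0.83, 0.0712) and Myb did (2.88, 0.000183). The fit without DC 8 h replicate 2 gave 2 members at DC 8 h, Bach2 (1.37, edgeR adjusted p = 0.00742) and Foxo1 (-0.94, 0.019), beside 404 genes in place of 739. The Myb difference between IF and DC at 8 h was then 2.23 (0.00394).

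Genes whose pattern over the 15 libraries was most like that of a member were found by the root mean square (RMS) difference of centred log2 CPM among 6953 other genes with a mean of at least 10 CPM. They were chosen on the same libraries, so their values are a description, with no test. For Myb they were Itm2a (RMS 0.543), a membrane protein gene, Eomes (0.738), a T-box factor of effector and memory CD8+ T cells, and Crtam (0.752), an adhesion receptor gene of activated T cells. Myb itself had an RMS of 1.46 about its own mean. Itm2a was 264, 197 and 236 CPM at IF 8 h, 44.2, 56.4 and 37.3 CPM at DC 8 h, 134, 208 and 237 CPM at IF 22 h and 28.5, 46.2 and 24.2 CPM at DC 22 h. Its IF and DC libraries did not overlap at either time. The log2 difference of Itm2a between IF and DC was 2.34 at 8 h and 2.55 at 22 h. For Eomes, which shares exonic bases with antisense Gm33460, it was 0.81 at 8 h and 2.04 at 22 h. The Crtam difference was 1.16 at 8 h and 1.94 at 22 h.

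**Figure D4:**
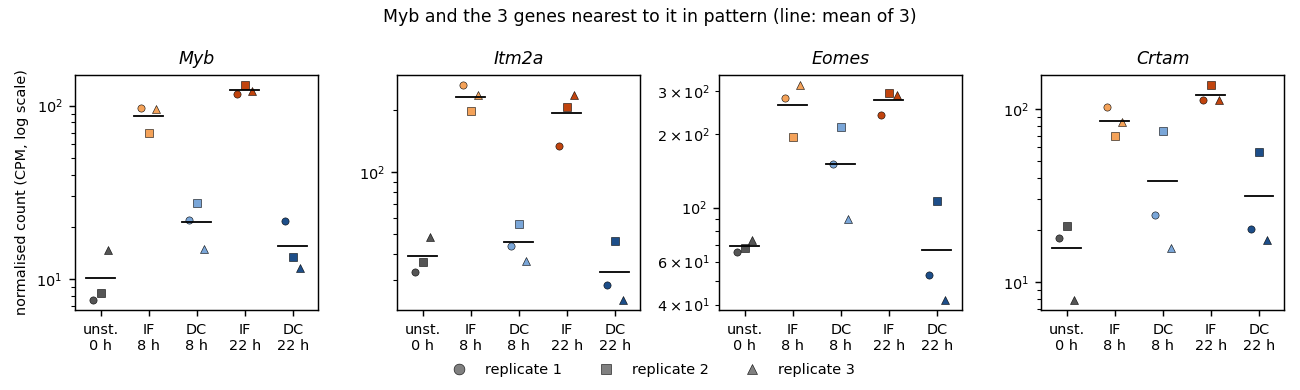
Normalised read counts (CPM, logarithmic axis) of Myb, Itm2a, Eomes and Crtam in the 15 libraries, by group. Points are libraries and the line is the group mean. In all 4 genes the IF 22 h libraries lie above the DC 22 h libraries, and Crtam and Eomes overlap between IF and DC at 8 h.

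The genes nearest to the other members were of diverse kinds. Bach2 was nearest to Phlpp1 (RMS 0.264), which encodes a phosphatase of AKT, Sap18 (0.269), which shares exonic bases with Ska3 and Mir3077, and Zfp113 (0.312). The log2 difference of Phlpp1 from unstimulated cells lay between 1.27 at IF 22 h and 1.98 at IF 8 h over the 4 stimulated groups. Foxo1 was nearest to Laptm5 (0.170), a lysosomal membrane gene, Cd8b1 (0.189), the beta chain of CD8, and Pacsin1 (0.191). For Cd8b1 it lay between -1.33 at IF 8 h and -0.96 at DC 22 h, so a T cell marker was lower along with Foxo1, and its part in the result was not tested. Satb1 was nearest to Tmem259 (0.142), Stk11ip (0.171) and Rala (0.207). Ets1 was nearest to Fam103a1 (0.126), Rps14 (0.144) and Chmp1b (0.146), and Bcl11b to Tnfaip8 (0.192), Ncor1 (0.213) and Mut (0.217). A gene that varies little, such as Ets1 with an RMS of 0.275 about its own mean, lies near many others on this measure.

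A list of 16 naive T cell genes, all tested, holds surface and homing genes and others such as Bcl2. Of the 16, 0 higher and 5 lower passed at IF 8 h, and 1 higher and 3 lower at IF 22 h. With DC it was 0 higher and 4 lower at either time. Of all genes tested, 3.04% were higher and 4.72% lower at IF 8 h, 2.63% and 3.44% at IF 22 h, 2.75% and 4.07% at DC 8 h, and 3.41% and 4.35% at DC 22 h, and the counts of the lists that follow stand beside the same shares. The median log2 change of the 16 genes was -0.48 and -0.38 with IF at 8 h and 22 h, where all genes had 0.02 and 0.01. With DC it was -0.39 and -0.50, where all genes had 0.04 and 0.04. Igfbp4, an insulin-like growth factor binding protein gene of naive T cells, went from 595 ± 36.4 CPM (SD, n = 3) in unstimulated cells to 9.79 ± 8.81 at IF 8 h and 136 ± 36.7 at DC 8 h. It was lower with IF than with DC, with a log2 difference of -3.79 ± 0.52 at 8 h (adjusted p = 0.00135 in edgeR) and -3.57 ± 0.50 at 22 h (0.000849). It was the 1 gene of the 16 that passed between IF and DC at 8 h. At 22 h 1 was lower and 1 higher with IF, the latter Cxcr3, a chemokine receptor gene, by 1.09 ± 0.27 (adjusted p = 0.0441 in edgeR), at 68.5 ± 18.9 against 32.2 ± 10.6 CPM. Cxcr3 was also higher at IF 22 h than at IF 8 h, by 1.52 ± 0.28 (0.0156). With IF 22 h replicates 2 and 3 both left out, 0 of the 16 genes passed between IF and DC at 22 h or between IF 22 h and IF 8 h. Bcl2, the anti-apoptotic gene, fell by 1.55 ± 0.21 at IF 8 h (adjusted p = 0.000221 in edgeR), and it shares exonic bases with antisense D630008O14Rik.

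Of 15 partners of TCF1 and LEF1, 13 were tested. None was higher, and 2 were lower at IF 8 h, 1 at IF 22 h and 2 with DC at each time. Aes, a short Groucho-family corepressor, went from 1172 ± 96.6 CPM in unstimulated cells to 525 ± 43.4 at IF 8 h, a fall of 1.16 ± 0.17 on the log2 scale (adjusted p = 0.000532 in edgeR). Tle3, a full-length Groucho corepressor, fell by 1.02 ± 0.23 there (0.0116). The median log2 change of the partners was -0.19 and -0.29 with IF at 8 h and 22 h, and -0.26 and -0.40 with DC. No partner passed between IF and DC at either time.

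FOXO1 regulators and targets were 18 genes, all tested. With IF, 2 were higher and 2 lower at 8 h, and 3 higher and 2 lower at 22 h. With DC, 1 was higher and 2 lower at 8 h, and 2 higher and 0 lower at 22 h. The median log2 change of the 18 genes was -0.16 and 0.05 with IF, and 0.03 and -0.19 with DC. Ctla4, an inhibitory receptor gene, rose in all 4 groups, for example from 3.39 ± 0.70 to 16.1 ± 1.42 CPM at IF 8 h (2.26 ± 0.28 on the log2 scale, adjusted p = 0.000107 in edgeR). Sgk1, a kinase that phosphorylates FOXO factors, fell by 1.68 ± 0.40 at IF 8 h (adjusted p = 0.0166 in edgeR). Between IF and DC 0 of the 18 passed at 8 h and 1 at 22 h, beside 0.665% and 2.43% of all genes. The 1 gene was Ctla4, lower with IF at 22 h, at -1.03 ± 0.25 (adjusted p = 0.0369 in edgeR).

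None of the 3 E proteins that ID3 binds passed in any comparison. Of 19 relatives of the members in their DNA-binding families, 14 were tested and 1 passed at DC 8 h (Foxp4, higher by 0.82 ± 0.17, adjusted p = 0.00662 in edgeR) and 1 at DC 22 h (Mybl2, a cell cycle relative of Myb, higher by 2.99 ± 0.72, 0.0171). No relative passed at IF 8 h or IF 22 h, or between IF and DC. The median log2 change of the relatives was -0.44 and -0.28 with IF, and -0.45 and -0.25 with DC.

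The 12 effector transcription factors, all tested, gave 4 higher and 0 lower at IF 8 h, and 1 higher and 1 lower at IF 22 h. With DC there were 5 higher and 1 lower at 8 h, and 2 higher and 1 lower at 22 h. Their median log2 change was -0.26 and -0.65 with IF, and 0.78 and 0.33 with DC. Irf4, a factor induced by antigen receptor signalling, went from 11.9 ± 1.87 CPM in unstimulated cells to 131 ± 28.0 at IF 8 h (3.47 ± 0.77 on the log2 scale, adjusted p = 0.0115 in edgeR). Between IF and DC 1 was higher and 2 lower with IF at 8 h, and 2 were higher and 2 lower at 22 h, where 0.665% and 2.43% of all genes passed in either direction. Zeb2, a factor of terminal effector differentiation that shares exonic bases with antisense Zeb2os, was higher with IF at 22 h by 2.14 ± 0.45 (0.0168), at 6.14 ± 1.11 against 1.38 ± 0.65 CPM, but unstimulated cells held 10.5 ± 2.14 CPM. Runx3, a factor of CD8+ identity and cytotoxic genes, was lower with IF at 22 h, at -1.72 ± 0.28 (0.00315). The Runx3 level was 41.7 ± 20.8 CPM with IF, 136 ± 24.3 with DC and 87.6 ± 3.66 in unstimulated cells. With all libraries, Cxcr3 with IF was the 1 list gene that passed between 8 h and 22 h, and 0 genes of any list passed the interaction. With IF 22 h replicates 2 and 3 both left out, 1 of the 16 naive T cell genes and 0 genes of the other lists passed at IF 22 h, and 0 genes of any list, Ctla4 and Igfbp4 included, passed between IF and DC at 22 h. These lists describe genes known to act with the members and are not independent support for them.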

How the data were processed

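Bulk RNA was measured in 15 libraries, 3 in each of 5 groups. The deposited tables give whole-number read counts per gene, 1 table a library, without normalization. Per the labels' protocols, libraries were made with an adapted CEL-seq protocol that primes on the poly(A) tail, so counts come from 3′ ends and levels of different genes are not compared. Per the submitters' processing notes, BWA and mm10 were used. The counting program, annotation, strand setting and use of molecular identifiers were not given in the sources used here.

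Counts were analysed with edgeR 4.0.16 in R 4.3.3 (filterByExpr, minimum count 10, minimum total 15; TMM; 1 quasi-likelihood fit with 5 group means; prior count 0.125; Benjamini-Hochberg within each comparison, threshold 0.05, two-sided). The filter removed at most 0.124% of a library's counts. TMM factors were 0.857 to 0.872 in unstimulated and 0.951 to 1.11 in stimulated libraries. Errors are standard errors of the log2 fold change unless given as SD. Library totals were 2892874 to 19806730 counts, which limits the precision for genes with low counts. The script was tested on simulated data.

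Alternatives were DESeq2 1.42.0, its size factors, library size alone, no filter, a filter on a mean CPM of 10, only the groups compared, the replicate number as a block, each library left out, and IF 22 h replicates 2 and 3 both left out. The members and lists were chosen with earlier results of these data known. All members are described. Of each other list, the counts are given and up to 3 genes with the smallest p-value among those past the threshold in a comparison could be named. For each member past the 5-group test, the 3 genes nearest in pattern are named. Promoter windows are from RefSeq, GRCm38.p6. Of the 10 members, 9 matched the table, with 19 windows.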

Additional observations from a re-analysis of the deposited data

Results flagged for a closer look

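Genes whose response to stimulation differed between the stimuli in a direct test at the same time are given here. Myb differed between IF and DC by 2.02 on the log2 scale at 8 h and by 2.98 at 22 h. Id3 differed by 0.84 at 22 h. All 3 values are higher with IF, in 3 of 3 libraries against 3 of 3 for Myb at both times and for Id3 at 22 h. The edgeR adjusted p-values are 0.00144, 3.88e-05 and 0.036. Both Myb calls were kept under every alternative run for them, while the Id3 call was lost in 5 of 6 fits that left out 1 library, with library size alone (adjusted p = 0.0726), with only the groups compared (0.0922) and with IF 22 h replicates 2 and 3 both left out (0.802). Neither gene passed the interaction test, which asks if the size of its difference depends on time (edgeR adjusted p = 0.553 for Myb and 0.542 for Id3).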

How the results depend on the processing

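The Myb and Bach2 rises at IF 8 h, the Myb rise at IF 22 h, the Bach2 and Foxo1 changes at DC 8 h and both IF-DC differences of Myb kept direction and call under every alternative run for them. The number of members past the threshold at IF 8 h was 5 with only the groups compared, where the count of all genes rose from 840 to 1299. At IF 22 h 8 members passed without a low-count filter, where the count of all genes rose from 658 to 1101 over a larger set tested. For IF against DC at 22 h 1 member passed with library size alone, 1 with only the groups compared and 4 with DESeq2. The counts of all genes were then 268, 70 and 563, in place of 263. For IF 22 h against IF 8 h 2 members passed without a filter and 1 with DESeq2, where all genes went from 121 to 502 and to 366. Leaving out 1 library gave 2 to 3 members at IF 8 h, 2 to 3 at DC 8 h, 2 to 6 at IF 22 h and 2 to 3 at DC 22 h. Over all genes such fits gave 419 to 573, 404 to 665, 283 to 947 and 454 to 984. For IF against DC they gave 1 to 1 members at 8 h (27 to 52 genes) and 1 to 6 at 22 h (90 to 759 genes). They gave 0 to 3 members for IF 22 h against IF 8 h (24 to 541 genes) and 0 to 0 for DC 22 h against DC 8 h (1 to 138 genes). In the interaction 0 to 1 members passed (0 to 279 genes) and in the 5-group test 3 to 8 (827 to 1697 genes). With only the groups compared, the calls for Myb at DC 8 h (adjusted p = 0.0665), Bach2 at IF 22 h (0.0715), Satb1 at IF 22 h (0.054), Ets1 at DC 22 h (0.0814) and Id3 for IF against DC at 22 h (0.0922) were lost. Tcf7 (0.0229) and Bcl11b (0.00129) at IF 8 h, Bcl11b at DC 8 h (0.0271) and Id3 at IF 22 h (0.0154) then passed. With no low-count filter the added calls were Bcl11b at IF 8 h (0.00432) and DC 8 h (0.0337), Tcf7 (0.0495), Foxp1 (0.0333) and Id3 (0.0456) at IF 22 h, Bcl11b for IF against DC at 22 h (0.00507), and Bach2 (0.0339) and Foxp1 (0.00247) for IF 22 h against IF 8 h. In DESeq2 Satb1 passed for the last (0.0304). With library size alone Satb1 at DC 8 h (0.047), Id3 at IF 22 h (0.0224) and Myb at DC 22 h (0.0405) passed. The cause was not tested.

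All sign changes concern values that did not pass the test. With library size alone, against unstimulated cells, Lef1 was 0.0093, Satb1 0.21 and Ets1 0.21 at IF 8 h, Lef1 0.073 and Foxp1 0.15 at DC 8 h, and Tcf7 0.32, Foxp1 0.078, Id3 0.089, Satb1 0.23 and Bcl11b 0.065 at DC 22 h. It also gave Lef1 -0.017 for IF against DC at 22 h and -0.027 for IF 22 h against IF 8 h, and Ets1 -0.038 in the interaction. Tcf7 at DC 22 h was 0.0050 without a filter, 0.027 with a mean of at least 10 CPM and 0.012 with only the groups compared. With IF 22 h replicates 2 and 3 both left out, where the lone library is assumed to vary like the other groups, Foxp1 was 0.077 at IF 22 h, and Bach2 0.36 and Foxp1 0.32 for IF against DC at 22 h. IF 22 h against IF 8 h then gave Tcf7 0.50, Lef1 -0.075 and Bcl11b 0.26, and the interaction Tcf7 0.14, Bach2 0.0069 and Satb1 0.12. Leaving out 1 library, the IF 8 h changes ran from -0.15 to 0.029 for Satb1 and -0.11 to 0.038 for Ets1. At DC 22 h they ran from -0.32 to 0.31 for Tcf7 and -0.24 to 0.061 for Satb1. IF against DC ran from -0.24 to 0.13 for Lef1 and -0.10 to 0.35 for Id3 at 8 h, and from -0.18 to 0.36 for Lef1, -0.54 to 0.067 for Bach2 and -0.28 to 0.049 for Foxo1 at 22 h. IF 22 h against IF 8 h ran from -0.61 to 0.074 for Tcf7, -0.15 to 0.13 for Lef1 and -0.27 to 0.030 for Foxo1. DC 22 h against DC 8 h ran from -0.39 to 0.18 for Lef1 and -0.29 to 0.066 for Foxp1, and the interaction from -0.15 to 0.41 for Lef1 and -0.10 to 0.17 for Ets1.

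Over all genes DESeq2 called 1269, 1175, 1066 and 1267 at IF 8 h, DC 8 h, IF 22 h and DC 22 h, where edgeR called 840, 739, 658 and 840. For IF against DC it called 195 at 8 h and 563 at 22 h, where edgeR called 72 and 263, and in the 5-group test 2258 against 1283. With IF 22 h replicates 2 and 3 both left out, 99 genes passed at IF 22 h and 8 for IF against DC at 22 h. Without IF 22 h replicate 1 those counts were 947 and 759. The labels do not say if the replicate numbers pair the libraries across groups. Of 30 same-numbered pairs, 4 had a correlation of deviations over 0.1 (range -0.19 to 0.40), and 9 of 15 libraries correlated best with their own number. With the replicate block 2 members passed at DC 8 h, beside 714 genes in place of 739, and Myb there had an edgeR adjusted p of 0.0518. In the 5-group test 5 members passed, beside 1171 genes in place of 1283. Ets1 (0.0681) and Bcl11b (0.0527) were lost there and Id3 (0.0349) was added. The block changed no other member call. Depth limits what can be read at low counts, as for Myb, with 46 to 63 counts in unstimulated cells.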
